A study of Mus musculus with 5 samples.

Results

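Mcm2, Mcm3, Mcm4, Mcm5, Mcm6, Mcm7, Pcna, Rrm1, Rrm2 and Lig1 are 10 genes of the machinery that copies DNA before a cell divides. They were taken by their symbols in the platform's gene table, and 7 of the 10 had values on 4 or more of the 5 arrays, out of 10081 genes and unnamed features tested in all. Each array compared amplified lung RNA of 1 bleomycin-treated mouse of the inbred strain 129svJ with a pool of amplified lung RNA from control mice of that strain. Bleomycin is an antitumour antibiotic that breaks DNA and is used to injure the lung. The 5 treated mice, 1 to 5, form 1 group, and the pool is shared by all arrays, so the spread between control mice is not measured. The labels state no dose, route, time after treatment, age, sex, dyes or size of the pool.

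Each value is a log ratio of the 2 channels, taken as log2 and centred on the median of its array. The log base is not named, and every fold below would be larger if it were a natural logarithm. Because no dyes are given, it is not settled whether a negative ratio means more RNA in the treated mouse or in the pool. Values are therefore described by their size and their side of 0, with no direction. A ratio in whole-lung RNA also cannot tell a different number of dividing cells from a different amount of RNA per cell. The arrays held between 11350 and 12083 values each, and their ratios correlated across genes with Pearson's r from 0.732 to 0.857 (genes are not independent, and the arrays share the pool). The files hold ratios and no levels, so the presence of lung markers could be checked only as measured features: 8 of 11 listed type 2 alveolar genes and 9 of 10 type 1 alveolar genes had values on enough arrays. So did 9 of 12 listed skeletal muscle genes and 10702 of all 17280 features. Having values therefore does not identify the tissue.

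The MCM proteins 2 to 7 form a ring that is loaded on replication origins in G1 phase and becomes the core of the helicase that unwinds DNA in S phase. PCNA is the sliding clamp that holds the replicative polymerases on their template, DNA ligase 1 seals the fragments of the lagging strand, and ribonucleotide reductase, made of the large subunit RRM1 and the small subunit RRM2, makes the deoxynucleotides. These genes are transcribed most around the start of S phase, largely through E2F factors, and are widely used as marks of proliferating cells. Most cells of the adult lung are at rest, and cell division is known to increase after lung injury.

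All 7 measured genes had mean log2 ratios below 0, and 5 of them passed the test on that side: Mcm3, Mcm7, Rrm2, Mcm6 and Lig1. Mcm2 and Pcna did not pass. The test was limma's moderated test of the mean ratio against 0, with Benjamini-Hochberg adjustment over all 10081 genes and features and a threshold of 0.05. Over all of these, 23.9% passed below 0, and the 7 genes had a median mean of −0.38, against −0.01 for all features. On all measured arrays the ratio was below 0 for 6 of the 7 genes, against 28% of all features. The mean differed by at least 1.5-fold on the negative side for 2 members, Mcm3 and Mcm7, and for 7.16% of all features. The same pool enters every ratio, and this test cannot separate its own sampling error from a difference. With the pool counted as 1 control mouse that varies like the treated mice, Mcm3 passed (limma, adjusted p = 0.028) and the other 6 did not (adjusted p from 0.0564 to 0.717), against 2.11% of all features below 0.

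**Figure D1:**
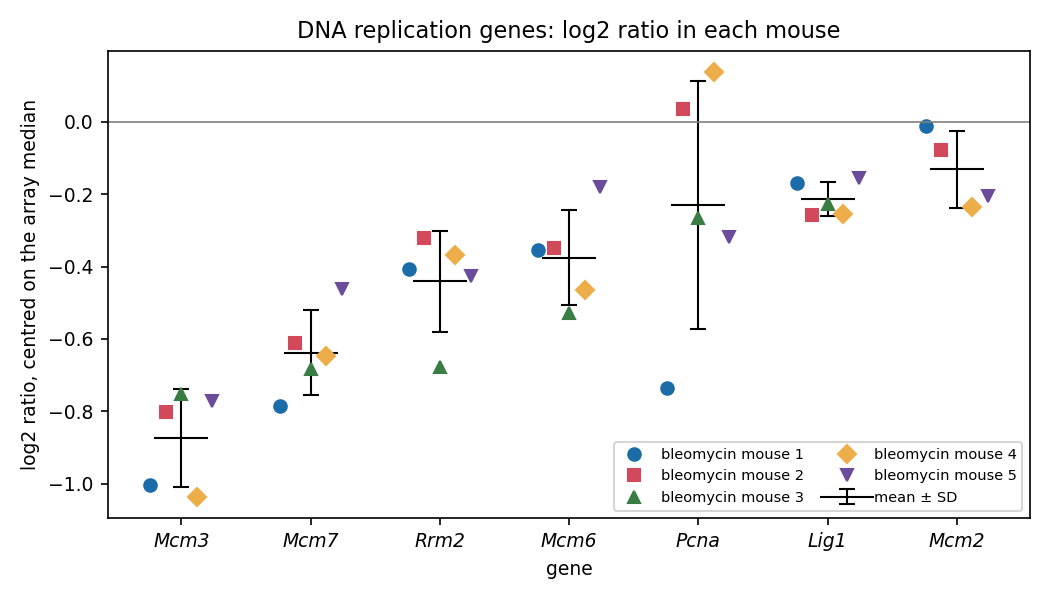
The log2 ratio (vertical axis, centred on the array median) of the 7 measured replication genes (horizontal axis, ordered by their mean), with 1 point for each bleomycin mouse and the mean and SD over mice. All points lie below 0 except Pcna in mice 2 and 4, and Pcna has the widest spread.

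Of the ring subunits, Mcm3 lay farthest from 0. Its log2 ratio was −1.005, −0.80, −0.75, −1.04 and −0.77 in mice 1 to 5, so all mice stood well below 0, with mice 1 and 4 lowest. The mean was −0.87 ± 0.14 (SD, n = 5), a 1.83-fold difference, with a 95% interval from −1.02 to −0.72 (limma, adjusted p = 8.87e-05). Mcm7 had log2 ratios of −0.79, −0.61, −0.68, −0.65 and −0.46 in mice 1 to 5. All 5 mice lay below 0, and mouse 5 was nearest to it. Its mean was −0.64 ± 0.12 (n = 5), a 1.56-fold difference (limma, adjusted p = 0.000232).

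Mcm6 stood at −0.35, −0.35, −0.53, −0.46 and −0.18 in mice 1 to 5, again below 0 in every mouse, with mouse 3 lowest and mouse 5 highest. The mean was −0.38 ± 0.13 (n = 5), a 1.297-fold difference (limma, adjusted p = 0.00276). Mcm2 was measured on 4 arrays, at −0.01, −0.08, −0.23 and −0.21 in mice 1, 2, 4 and 5. The value of mouse 1 was 0.001 as deposited, so its side of 0 comes from the centring. The mean of Mcm2 was −0.13 ± 0.11 (n = 4), with a 95% interval from −0.29 to 0.03 (limma, adjusted p = 0.141). Mcm4 and Mcm5 had features on the platform but values on 0 arrays.

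The ratios of the ring subunits differed from each other on the same arrays. Mcm3 lay below Mcm7 in 5 of 5 mice, by −0.24 ± 0.12 (mean and SD of the within-array difference), and Mcm7 below Mcm6 in 5 of 5, where Mcm6 minus Mcm7 was 0.26 ± 0.11. Mcm2 lay above Mcm3 and above Mcm7 on 4 of 4 arrays, by 0.77 ± 0.18 and 0.50 ± 0.22, and above Mcm6 on 3 of 4. Each gene was measured by 1 feature, and the response of a feature to a true difference is not known, so unequal ratios of the features and unequal differences of the transcripts cannot be told apart.

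Rrm2, the small subunit of ribonucleotide reductase, stood at −0.41, −0.32, −0.68, −0.37 and −0.43 in mice 1 to 5. All mice lay below 0, and mouse 3 was lowest. The mean was −0.44 ± 0.14 (SD, n = 5), a 1.36-fold difference (limma, adjusted p = 0.00154). Rrm1, the large subunit, had a value on 1 array only, −0.05 in mouse 1 after centring, and was not tested. Of the members, Mcm2 with 4 arrays was thus just inside the requirement of 4 arrays and Rrm1 with 1 array was the nearest outside it.

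Lig1, the replicative DNA ligase, had the smallest spread between mice. Its log2 ratios were −0.17, −0.26, −0.23, −0.26 and −0.16 in mice 1 to 5, all on the same side and within 0.10 of each other. Of all features tested, 96.9% had a larger SD between mice. Its mean of −0.21 ± 0.05 (n = 5) is a difference of only 1.16-fold, which passed the test (limma, adjusted p = 0.00885) and was the smallest of the 5 that did.

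Pcna, the sliding clamp, was the member that varied most. Its log2 ratio was −0.74, 0.04, −0.27, 0.14 and −0.32 in mice 1 to 5. Mice 2 and 4 lay above 0 and mice 1, 3 and 5 below it, with mouse 1 lowest. The mean was −0.23 ± 0.34 (n = 5), with a 95% interval from −0.52 to 0.06 (limma, adjusted p = 0.162), and 10.02% of all features had a larger SD. Without mouse 1 the mean of Pcna was −0.10, so its size rests largely on that mouse.

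In the order of the means, Mcm3, Mcm7, Rrm2, Mcm6, Pcna, Lig1 and Mcm2, the difference of neighbours was larger than its SD for Mcm3 and Mcm7, given above, and for Mcm7 and Rrm2, where Mcm7 minus Rrm2 was −0.20 ± 0.17 and below 0 in 5 of 5 mice. The neighbours after these did not differ beyond their spread. Mcm6 minus Rrm2 was 0.07 ± 0.14, with 3 mice above 0 and 2 below, and Mcm6 minus Pcna was −0.15 ± 0.40, with 3 below and 2 above. Pcna minus Lig1 was −0.02 ± 0.38, with 3 mice below 0 and 2 above, and Mcm2 minus Lig1 was 0.08 ± 0.11, with 3 of 4 arrays above 0. For 14 of the 21 pairs of members, the within-array difference had the same sign on every array that both shared. The differences between members were not tested.

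No mouse stood apart for the members as a group. Over the 6 members measured on all arrays, the mean log2 ratio was −0.58, −0.38, −0.52, −0.44 and −0.39 in mice 1 to 5. The number of members below 0 was 7 of 7, 6 of 7, 6 of 6, 6 of 7 and 7 of 7. Leaving out any 1 mouse left 5 members past the threshold below 0 and 0 above.

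**Figure D2:**
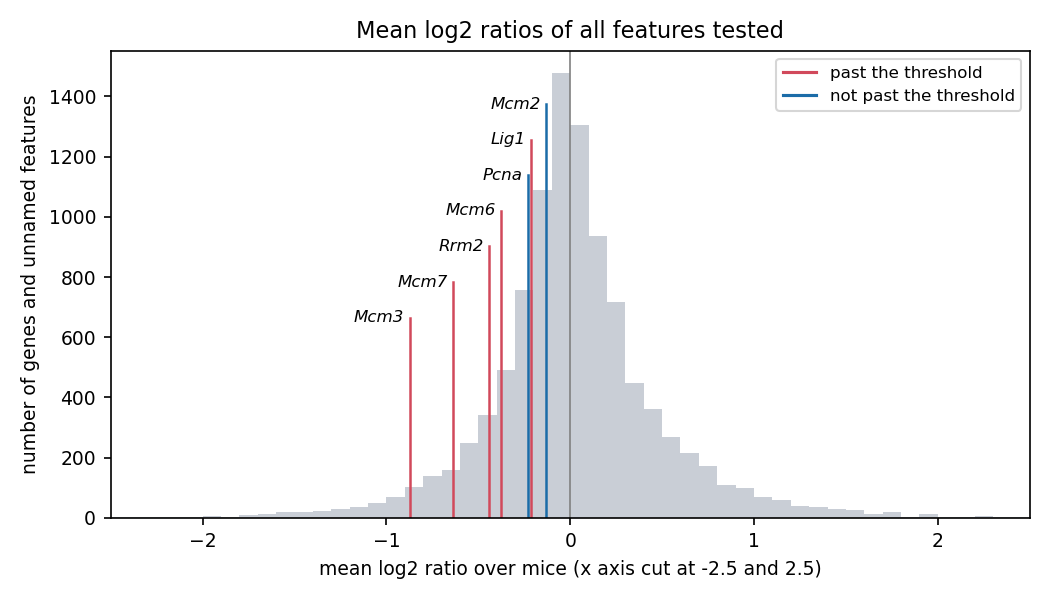
The mean log2 ratio over mice (horizontal axis) of all 10081 genes and unnamed features as a histogram of counts (vertical axis), with the 7 replication genes as vertical lines of arbitrary height. Mcm3 lies in the lower tail, where 3.33% of all features have a mean as low or lower, while Lig1, Pcna and Mcm2 lie inside the central bulk.

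Within the distribution of all features, the members were spread from the tail to the centre. Of all features, 3.33% had a mean as low as that of Mcm3 or lower, 6.38% as that of Mcm7, 11.4% as that of Rrm2 and 14.05% as that of Mcm6. For Pcna, Lig1 and Mcm2 these shares were 22.8%, 24.01% and 32.4%. The last 3 genes lay well inside the distribution.

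The promoters of the members are shown because these genes lay on the same side and because E2F sites are a known feature of replication genes. The RefSeq windows of build GRCm38.p6 run from 250 bases before to 50 bases after each annotated start and were searched on both strands for TTTCGCGC and TTTGGCGC, written here as the E2F-type letters. Of the 9 members searched (Mcm4 was not), 5 held at least 1 match, namely Mcm3, Mcm5, Mcm6, Mcm7 and Lig1. Among all 27025 gene symbols with such windows, 0.929% held one. In the lines below the E2F-type letters are in capitals, 5′ to 3′ on the strand of the gene, and positions count from 1 at the annotated start and from −1 before it. The longer Mcm6 stretch (chr1:128359706-128359825, minus strand, positions −120 to −1) holds 3 matches, of which 2 overlap each other, and 2 copies of the CCAAT box, also in capitals and read there as ATTGG. The Mcm3 match (chr1:20820263-20820292, minus strand) lies at positions 39 to 46, the Mcm7 match (chr5:138171849-138171878, minus strand) at 17 to 24 of its second listed start and the Lig1 match (chr7:13278841-13278870, plus strand) at 27 to 34 of its second listed start. The Mcm5 stretch (chr8:75109347-75109376, plus strand) holds 2 overlapping matches at −153 to −142.
Mcm6: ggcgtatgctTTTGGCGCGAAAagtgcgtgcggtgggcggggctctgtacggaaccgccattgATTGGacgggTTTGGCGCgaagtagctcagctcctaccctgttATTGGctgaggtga
Mcm3: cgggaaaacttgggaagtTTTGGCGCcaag
Mcm7: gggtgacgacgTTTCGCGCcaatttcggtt
Lig1: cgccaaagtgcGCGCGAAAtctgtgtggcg
Mcm5: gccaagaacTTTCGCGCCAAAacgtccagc

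Set beside the ratios, 4 of the 5 genes past the threshold (Mcm3, Mcm7, Mcm6 and Lig1) held the letters and Rrm2 did not. The genes that did not pass, Mcm2 and Pcna, did not hold them in this window, nor did Rrm1, which was not tested. Mcm7 had 2 windows and Lig1 3, and in each gene only the second held a match. Mcm2, Pcna and Rrm2 had 1 window each. Other forms of E2F sites were not searched, and whether the letters go with the calls was not tested. The CCAAT box, the core letters of NF-Y sites, was found in 8 of the 9 members searched, all but Lig1, and in 41.1% of all gene symbols. In Mcm7 one CCAAT copy overlaps the E2F-type letters shown. A match of letters is a description of the sequence and shows no binding.

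The other genes of the replication pathway lay on both sides of 0. Of 111 other listed genes, 67 were measured on 4 or more arrays, of which 28 passed below 0, 14 passed above 0 and 25 did not pass. Over all features, 23.9% passed below 0 and 25.8% above. The median of the 67 was −0.09. With the pool counted as 1 control mouse, 1 passed below 0 and 3 above, against 2.11% and 2.98% of all features. Without mouse 3 the count above 0 was 9. Whether the members differ from these genes was not tested.

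**Figure D3:**
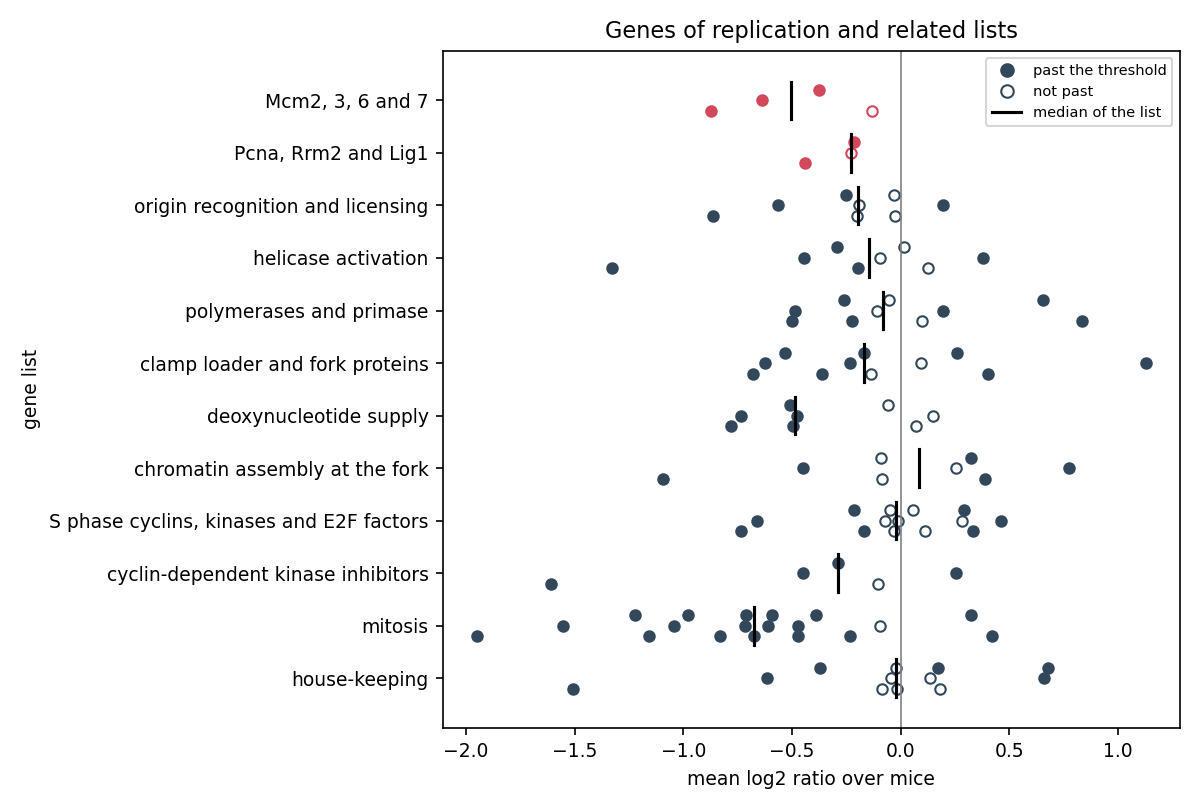
Mean log2 ratio over the 5 mice (horizontal axis) of each measured gene of the lists named on the vertical axis, with filled points past the threshold, open points not past it and a bar at the median of each list. The members (red), origin recognition and licensing, deoxynucleotide supply, cyclin-dependent kinase inhibitors and mitosis lie mostly below 0. The helicase activation, polymerase, clamp loader, chromatin assembly and E2F lists lie on both sides.

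Among genes of origin recognition and licensing, 3 of 8 passed below 0 and 1 above, against 23.9% and 25.8% of all features. Mcm10, which helps to start the fork, stood at −0.86 ± 0.24 (SD, n = 5), geminin, Gmnn, the inhibitor of origin licensing, at −0.56 ± 0.19 and the origin recognition subunit Orc2 at −0.25 ± 0.11. Mcm9, an MCM relative with a role in DNA repair, stood at 0.20 ± 0.08, and its call was lost without mouse 2, 3 or 5 (adjusted p of at most 0.0589). Among genes of helicase activation, 4 of 8 passed below 0 and 1 above, against the same shares of all features. CDC45 and the GINS proteins join the MCM ring to make the active helicase. Gins2 averaged −1.33 ± 0.61, with −1.87, −0.31, −1.69, −1.31 and −1.48 in mice 1 to 5, so that mouse 2 lay nearest to 0. These values come from 1 feature. With features on at least 3 arrays also averaged in, the mean of Gins2 was −1.02 (limma, adjusted p = 0.0161). Cdc45 stood at −0.45 ± 0.17 and Gins1 at −0.295 ± 0.09 on 4 arrays, while Topbp1, which helps to load CDC45, was at 0.38 ± 0.09.

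Of 10 measured polymerase genes, 4 passed below 0 and 3 above, against 23.9% and 25.8% of all features. No primase gene was among them, because Prim1 and Prim2 had values on fewer than 4 arrays. The polymerase epsilon subunit Pole2 stood at −0.4996 ± 0.17, the polymerase delta subunit Pold4 at −0.49 ± 0.16 and Pola1, the catalytic subunit of polymerase alpha, at −0.26 ± 0.22. On the other side lay Pole4 at 0.83 ± 0.09, Pola2 at 0.65 ± 0.18 and Pole3 at 0.20 ± 0.14. The calls of Pola1 and Pole3 were not stable, with adjusted p up to 0.0882 for Pola1 without mouse 1, 2, 3 or 4 and up to 0.105 for Pole3 without any 1 mouse. Of clamp loader and fork genes, 6 of 11 passed below 0 and 3 above, against the same shares of all features. Fen1, the flap endonuclease that works with PCNA and ligase 1, stood at −0.68 ± 0.17, the clamp loader subunit Rfc4 at −0.62 ± 0.27 and Rpa1, which binds single-stranded DNA, at −0.53 ± 0.12. Top1, topoisomerase 1, averaged 1.13 ± 0.13, Rpa2 0.40 ± 0.33 and Rfc2 0.26 ± 0.14. The call of Rpa2 was lost without mouse 4 or 5 (adjusted p = 0.0818 and 0.0887) and that of Rfc2 without mouse 3 (adjusted p = 0.0506).

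In deoxynucleotide supply, the pathway of Rrm2, 5 of 8 genes passed below 0 and 0 above, against 23.9% and 25.8% of all features. The list had a median of −0.49. Thymidine kinase, Tk1, stood at −0.78 ± 0.22 (n = 4) and thymidylate synthase, Tyms, at −0.73 ± 0.21, both suppliers of thymidylate. Samhd1, an enzyme that breaks deoxynucleotides down, lay on the same side at −0.51 ± 0.25. Chromatin assembly genes had 2 of 8 below 0 and 3 above, against 23.9% and 25.8% of all features. The histone chaperone Asf1b stood at −1.09 ± 0.22 and Chaf1b, of the assembly factor that binds PCNA, at −0.45 ± 0.09. The histone-binding protein Rbbp4 was at 0.77 ± 0.15, the FACT subunit Supt16 at 0.39 ± 0.15 (n = 4) and the histone acetyltransferase Hat1 at 0.32 ± 0.24, whose call was lost without mouse 2, 3 or 5 (adjusted p of at most 0.0717).

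The regulators of S phase did not lie on 1 side. Of 14 measured cyclins, kinases and E2F factors, 4 passed below 0, 3 above and 7 did not pass. Over all features, 23.9% passed below 0 and 25.8% above, so these counts lie near the shares over all features. Cyclin A2, Ccna2, stood at −0.73 ± 0.39, cyclin D1, Ccnd1, at −0.66 ± 0.12 (n = 4) and the repressor E2f6 at −0.21 ± 0.10, whereas E2f1, an activator of replication genes, stood at 0.29 ± 0.08. The E2F partner Tfdp1 was at 0.46 ± 0.18 and Rb1, which holds E2F factors in check, at 0.33 ± 0.24. The calls of E2f6 (without mouse 3 or 4, adjusted p of at most 0.0548) and Rb1 (without mouse 1, 2 or 3, adjusted p of at most 0.0742) were lost. Of 5 inhibitors of cyclin-dependent kinases, 3 passed below 0 and 1 above. Cdkn1a, the p53 target that blocks entry into S phase and binds PCNA, was the farthest at −1.61 ± 0.13, followed by Cdkn2d at −0.45 ± 0.25 and Cdkn2a at −0.29 ± 0.14, with Cdkn2c at 0.26 ± 0.15 and its call lost without mouse 1 or 3 (adjusted p = 0.0504 and 0.0602).

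Genes of mitosis, the phase that follows replication, lay mostly on the side of the members. Of 19 measured, 16 passed below 0 and 2 above, against 23.9% and 25.8% of all features. Their median was −0.68, against −0.38 for the members, a difference that was not tested. With the pool counted as 1 control mouse, 3 mitosis genes passed below 0 and 0 above, against 2.11% and 2.98% of all features. Cdk1 stood at −1.95 ± 0.25, the kinase subunit Cks1b at −1.55 ± 0.48 and the spindle protein Tpx2 at −1.22 ± 0.20, against the kinases Ttk at 0.42 ± 0.16 and Plk1 at 0.32 ± 0.20. House-keeping genes had 3 of 12 on each side, near the 23.9% and 25.8% of all features, and a median of −0.02. Those named by rule were Ppia, B2m and Gusb at −1.51 ± 0.47, −0.62 ± 0.42 and −0.37 ± 0.11, and Ywhaz, Polr2a and Tbp at 0.68 ± 0.43, 0.66 ± 0.50 and 0.17 ± 0.06. The calls of Polr2a (without mouse 3, 4 or 5, adjusted p of at most 0.0629) and Tbp (without mouse 2, 3 or 4, adjusted p of at most 0.0764) were lost.

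**Figure D4:**
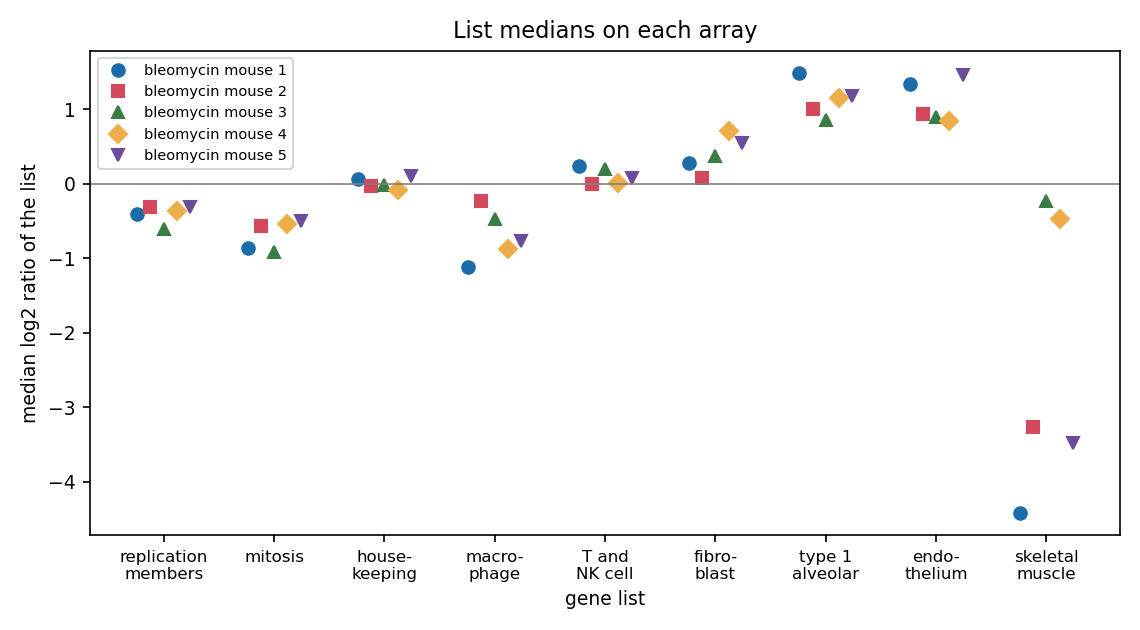
The median log2 ratio (vertical axis) of the replication members and of 8 other gene lists (horizontal axis) on each of the 5 arrays, 1 point per bleomycin mouse. The members lie between −0.60 and −0.32 in every mouse, while skeletal muscle markers range from −4.42 to −0.23.

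Markers of several cell types also lay away from 0 on these arrays, and their part in the ratios of the replication genes was not tested. Macrophage markers passed below 0 for 6 of 8 genes and above 0 for 2, against 23.9% and 25.8% of all features. Their list medians were −1.12, −0.23, −0.48, −0.88 and −0.78 in mice 1 to 5. The members' medians were −0.41, −0.32, −0.60, −0.37 and −0.32 in the same order (without Mcm2 in mouse 3). Mouse 1 was lowest for macrophages and, by the mean over the 6 members on all arrays, also for the members, while by their median mouse 3 was lowest. Skeletal muscle markers passed below 0 for 7 of 9 genes, with medians of −4.42, −3.26, −0.23, −0.48 and −3.48. Mice 3 and 4 were nearest to 0 for muscle and mouse 1 was farthest from it. With the pool counted as 1 control mouse, 1 macrophage marker passed below 0 and 0 above, and 0 skeletal muscle markers passed. Over all features, 2.11% passed below 0 and 2.98% above at this setting.

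Other lists lay above 0 or on both sides, against 23.9% of all features below 0 and 25.8% above. Endothelial markers passed above 0 for 8 of 8 genes, type 1 alveolar markers for 6 of 9 and club cell markers for 6 of 8, with 0 below in each. With the pool counted as 1 control mouse, 3, 2 and 2 of them passed above 0 in that order, against 2.98% of all features. Type 2 alveolar markers had 1 of 8 below and 3 above, and fibroblast markers 3 of 8 below and 4 above. T and NK cell markers had 0 of 9 below and 3 above, B and plasma cell markers 2 of 6 below and 1 above, neutrophil markers 2 of 8 below and 1 above and erythroid markers 0 of 5 below and 2 above. With the pool counted as 1 control mouse, these last 6 lists had at most 1 gene below 0 and at most 2 above. The shares over all features at this setting were 2.11% below 0 and 2.98% above.

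The genes most like Mcm3 over the 5 arrays, by the root mean square difference of their log2 ratios among 7436 named genes measured in every mouse, were Fzd5, Ogg1, Atp5k, Rap1gds1 and Esrra. Their differences from Mcm3 were 0.071, 0.076, 0.091, 0.091 and 0.091 in that order, and their means ran from −0.93 to −0.85. Fzd5 is a Wnt receptor, Ogg1 a DNA glycosylase that removes oxidised guanine, and Esrra an orphan nuclear receptor. Atp5k belongs to ATP synthase, and Rap1gds1 acts on small GTPases. This measure includes the difference of the means, and Mcm3 minus Mcm7, the nearest member by its mean, was −0.24. No other member could therefore be among these 5 genes, and whether members vary together was not tested.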

How the data were processed

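The deposited table holds a log ratio for each of 17280 features on 5 arrays, taken here as log2, and the deposited array medians lay near 0, from 0.011 to 0.026. No source used here gives the log base, the dyes or the normalization. Scanner intensities were not used; signal above background is thus not known, and precision is limited by the 5 arrays. Each array was centred on its median, features with values on at least 4 arrays were kept (10702), symbols were updated through gene identifiers with RefSeq (14445 of 14723 annotated features matched) and features of 1 symbol were averaged. The test of each mean ratio against 0 used limma (version 3.58.1, R version 4.3.3; intercept only, empirical Bayes, two-sided, Benjamini-Hochberg over all 10081). The procedure was tested on simulated data. The simulated ratios were independent between arrays and held no error shared through the pool, so that test cannot judge the effect of such error. Members and lists were chosen with earlier results of these data known. Named genes are all members, the 3 farthest from 0 on each side past the threshold in each pathway list, and the 5 closest to the member farthest from 0. Alternatives changed the array minimum, centring, scaling, averaging, test and mice used.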

Additional observations from a re-analysis of the deposited data

How the results depend on the processing

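No member changed its side of 0 or its side of the threshold without centring, with arrays scaled to 1 median absolute deviation, with features on at least 3 or on all 5 arrays (where Mcm2 has no value), with medians of features, with a plain one-sample test or without any 1 mouse. The pool counted as 1 control mouse ended 4 calls, with unchanged means: Mcm7 at −0.64 (adjusted p = 0.0564), Rrm2 at −0.44 (adjusted p = 0.168), Mcm6 at −0.38 (adjusted p = 0.22) and Lig1 at −0.21 (adjusted p = 0.345). By its construction, this setting adds the spread of 1 mouse to every error. Counts below and above 0 were then 213 and 300 over all features, against 2406 and 2596, 1 and 0 for members and 1 and 3 for other replication genes. Without 1 mouse, other replication genes above 0 numbered from 9 (without mouse 3) to 14. Of 54 other named genes, 43 lost their call with the pool counted as 1 control mouse and 10 with the plain test. No paired analysis was possible because there is 1 group.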

Other observations

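In 4 pairs chosen after their values were seen, subunits of the same replication complex lay on opposite sides of 0. The within-array difference was −0.88 ± 0.28 for Rfc4 minus Rfc2 (SD, n = 5 mice), −1.33 ± 0.18 for Pole2 minus Pole4, −0.91 ± 0.21 for Pola1 minus Pola2 and −0.93 ± 0.26 for Rpa1 minus Rpa2, each below 0 in 5 of 5 mice. These signs follow from the choice, because both genes of each pair lay on opposite sides of 0 on every array. Each of these genes was measured by 1 feature, except Pole2 with 2 features at −0.55 and −0.45. With the pool counted as 1 control mouse, Pole4 passed (limma, adjusted p = 0.0205). The other genes of these pairs did not (limma, adjusted p from 0.0917 to 0.53). Of other subunits of these complexes, Rfc3 (−0.17), Rfc5 (−0.23) and Pole (−0.225) passed below 0. Pole3 (0.20) passed above 0, a call lost whichever mouse was left out, and Rfc1 (0.10) did not pass. Top1 was measured by 16 features, with means from 0.63 to 1.57, and 16 of the 16 lay above 0 on every array with a value.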
